A study of Mus musculus with 17 samples.

Results

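The myosin heavy chain genes of striated muscle described here are 8 rows of a table of 36172 genes measured in EDL muscle of aged mice. They were taken by gene symbol, and each symbol matched 1 row. Myh2, Myh1 and Myh4 are the adult fast genes, Myh7, Myh6 and Myh7b the slow and cardiac-type genes, and Myh3 and Myh8 the developmental genes. Myosin heavy chain is the motor protein of the thick filament, and the form a fibre makes goes with its speed of shortening. Fibres of adult limb muscle are classed as slow (Myh7), IIA (Myh2), IIX (Myh1) or IIB (Myh4), and Myh3 and Myh8 are the embryonic and perinatal forms, also found in regenerating fibres. The extensor digitorum longus (EDL) of the mouse lower leg is known as a fast muscle rich in IIB fibres.

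RNA of this muscle was sequenced from 17 mice of 22 or 23 months. An empty vector had been given to 10 animals, 5 females (2 of 22 months and 3 of 23) and 5 males (1 of 22 and 4 of 23). A Hand2 vector, named for a transcription factor of sympathetic neurons, had been given to 7, of which 4 were females (3 of 22 months and 1 of 23) and 3 males (1 of 22 and 2 of 23). The labels do not say how or when the vectors were given, nor the mouse strain. Hand2 itself measured 0.0711 to 0.940 CPM (counts scaled to library size by TMM) with the empty vector and 1.02 to 26.3 CPM with the Hand2 vector, so those groups did not overlap. Xist and 4 Y-linked genes matched the labelled sex in every library. Libraries held 19181208 to 30942818 estimated counts with a median of 26091234, and 3 counts, taken as the limit of detection, came to 0.0970 to 0.156 CPM. Empty vector replicates 2, 5 and 10 stood apart in the fast genes, Hand2 replicates 2 (a female) and 6 (a male) in Myh7, and values are given below with and without such animals where a call depends on them.

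Of the 8 genes, 5 lie side by side on the plus strand of chromosome 11 (mm10) in the order Myh3 (67078300 to 67102291), Myh2 (67171027 to 67197517), Myh1 (67200114 to 67224575), Myh4 (67237812 to 67260447) and Myh8 (67277124 to 67308633). Myh6 (54941921 to 54966607) and Myh7 (54970688 to 54994549) lie in tandem on the minus strand of chromosome 14, and Myh7b (155611212 to 155634307) lies on the plus strand of chromosome 2. Promoter windows of RefSeq (GRCm38.p6), from 250 bases before to 50 after a start, were found for 8 of 8 members. The windows of Myh2, Myh1, Myh4 and Myh8 share a stretch of 14 bases, shown in capitals within 80 bases on the gene's strand because it sets these 4 neighbours apart from the other members. Myh2 is at chr11:67170872-67170951, Myh1 at chr11:67199912-67199991, Myh4 at chr11:67237624-67237703 and Myh8 at chr11:67277040-67277119.
Myh2: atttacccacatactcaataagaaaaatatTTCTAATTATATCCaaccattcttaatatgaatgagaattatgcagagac
Myh1: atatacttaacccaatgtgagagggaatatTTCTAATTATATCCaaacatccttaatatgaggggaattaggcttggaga
Myh4: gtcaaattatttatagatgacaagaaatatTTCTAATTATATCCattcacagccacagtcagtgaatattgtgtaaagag
Myh8: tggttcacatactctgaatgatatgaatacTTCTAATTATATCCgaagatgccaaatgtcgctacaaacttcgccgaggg
Each shared stretch given here was picked as the longest common to the windows named, so its presence in them was fixed by that choice. Searched on both strands, the stretch of 14 bases was in 4 of 32851 promoter windows (0.0122%), those of the 4 genes named. The first 3 of the 4 share 20 bases around it, found in 3 windows. Myh1, Myh4 and Myh8 share a further stretch, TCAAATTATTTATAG, of 15 bases, and their match to the MEF2 site, a motif of muscle genes, lies inside it. A MEF2 site match was in 3.19% of all windows and a CArG box match, here in Myh4 alone, in 1.63%. On either strand, TATAAA was in 6 of 8 members, with Myh7 and Myh7b the exceptions, and in 13.6% of all windows. In Myh8 its only match was on the opposite strand, inside the stretch of 15 bases. The E-box CANNTG, the motif of MyoD-type factors, was in 6 of 8 members, with Myh1 and Myh2 the exceptions, and in 72.3% of all windows. The 250 bases upstream of Myh7 (chr14:54994550-54994799, minus strand), the gene that varied most between animals, are shown with their 2 E-boxes in capitals.
Myh7: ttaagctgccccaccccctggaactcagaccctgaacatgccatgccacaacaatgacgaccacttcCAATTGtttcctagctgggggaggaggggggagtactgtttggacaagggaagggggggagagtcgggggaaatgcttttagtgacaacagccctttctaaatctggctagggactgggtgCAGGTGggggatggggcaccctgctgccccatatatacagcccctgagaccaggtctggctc

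The 8 genes took 3.48% to 4.07% of a library. Their transcripts, 6016 to 6230 bases long, are alike: of all 50-base stretches, 26.1% of those in Myh1, 26.7% in Myh2, 18.6% in Myh4, 19.9% in Myh8 and 3.66% in Myh3 also occur in another member, as do 22.2% in Myh7 and 22.6% in Myh6, which share theirs with each other. Myh7b shares none. The sources used here do not say how reads matching several genes were divided, so the split between Myh1, Myh2, Myh4 and Myh8 and that between Myh6 and Myh7 are uncertain. A library of whole muscle also cannot tell fewer fibres of a type from less RNA per fibre.

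Myh4 was the most abundant member in every animal. It made up 54.6% to 78.8% of the counts of the 8 genes (median 72.1%), Myh1 17.5% to 33.2% (median 20.8%) and Myh2 3.57% to 16.6% (median 6.76%). Together these 3 fast genes made up 98.5% to 99.8%. Myh7 made up 0.0127% to 1.19% (median 0.203%). The shares of Myh6 (0.0554% to 0.137%), Myh7b (0.0406% to 0.0787%), Myh3 (0.0292% to 0.0814%) and Myh8 (0.0208% to 0.0337%) were smaller still.

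**Figure D1:**
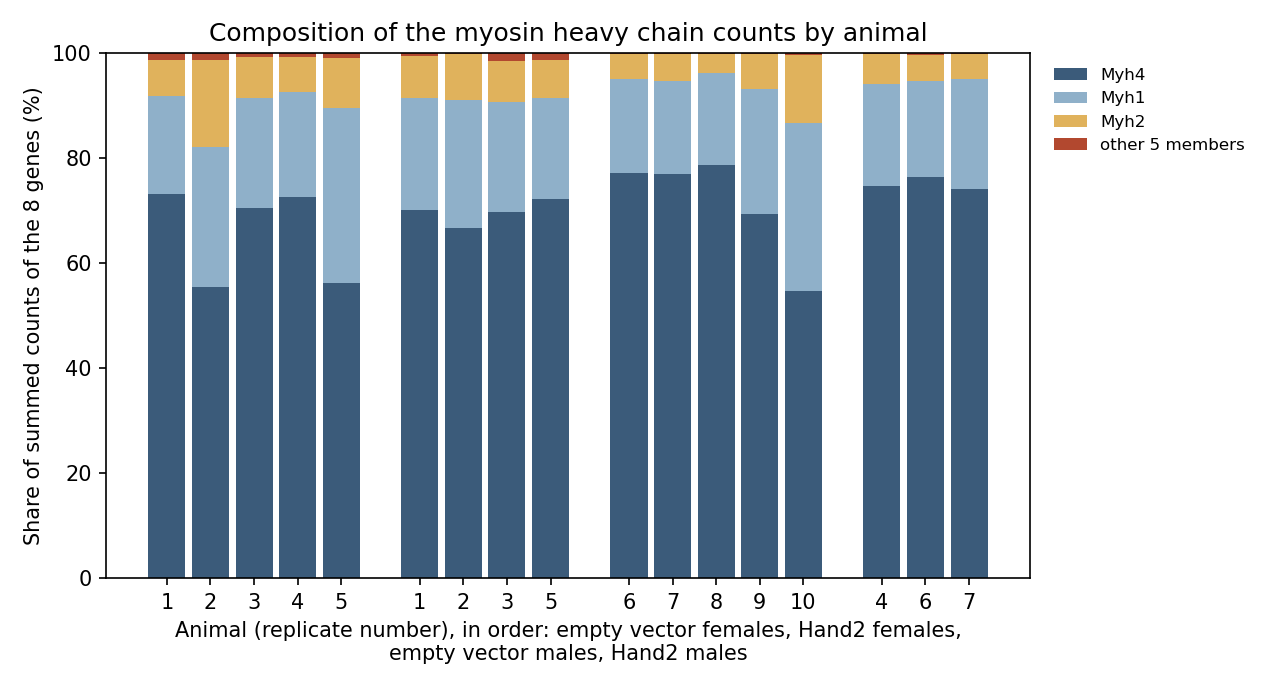
Share of the summed counts of the 8 genes (y axis, percent) in each of 17 animals (x axis, replicate number, in 4 blocks by vector and sex), stacked for Myh4, Myh1, Myh2 and the other 5 members. Empty vector replicates 2, 5 and 10 have the lowest Myh4 shares, 54.6% to 56.2%, and the red part is larger in 8 of 9 females than in any male, the exception being Hand2 replicate 2.

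Per kilobase of transcript the median order over 17 animals was Myh4 (4485 CPM per kilobase), Myh1 (1259), Myh2 (435), Myh7 (13.5), Myh6 (4.70), Myh7b (3.68), Myh3 (3.29) and Myh8 (1.60). Myh4 exceeded Myh1, Myh1 exceeded Myh2 and Myh2 exceeded Myh7 in 17 of 17 animals, and these ranges did not overlap. The ranges of Myh1 and Myh2 barely parted, with the lowest Myh1 at 1052.4 and the highest Myh2 at 1051.8 CPM per kilobase. Further down, neighbours overlapped: Myh7 exceeded Myh6 in 9 of 17 animals and Myh7b exceeded Myh3 in 10 of 17. Myh6 exceeded Myh7b in 16 of 17 and Myh3 exceeded Myh8 in 17 of 17, although the ranges overlapped. In the 9 females Myh7 ranked above Myh6 at a median of 41.4 CPM per kilobase, and in the 8 males it ranked below Myh3 at 1.71 and exceeded Myh8 in 4 of 8 animals.

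Among the fast genes, Myh1 and Myh2 varied together and Myh4 varied against them. The r of Myh4 with Myh2 on log2 CPM was -0.814, outside the 4 pairs examined below. In empty vector replicate 2 (a female of 22 months) Myh4 took 55.4%, Myh1 26.8% and Myh2 16.6%. In replicate 5 (a female of 23 months) the shares were 56.2%, 33.2% and 9.58%. In replicate 10 (a male of 22 months) they were 54.6%, 32.0% and 13.1%. The other 14 animals held more Myh4, from 66.7% (Hand2 replicate 2) to 78.8% (empty vector replicate 8). Across 17 animals, on log2 CPM, Myh2 and Myh1 had a Pearson r of 0.763 (permutation p = 0.0005) and a Spearman rho of 0.640 (permutation p = 0.00673). Myh1 and Myh4 had an r of -0.764 (permutation p = 0.00069) and a rho of -0.449 (permutation p = 0.0736). Adjusted over the 4 pairs examined, the p of r was 0.00119 for both pairs, and those of rho 0.0135 and 0.0981. Leaving out the 2 animals farthest from the median of the first gene gave 0.740 and -0.514, so the second rests in part on empty vector replicates 5 and 10. Within the 9 females r was 0.697 and -0.755, and within the 8 males 0.908 and -0.788. In females alone the first did not pass (permutation p = 0.0760). Reads shared between these genes and the common library total enter each value, and their part was not tested. Another of the 4 pairs, Myh7 with Myh2, did not pass. It had an r of 0.459 (permutation p = 0.0626) and a rho of 0.387 (permutation p = 0.125). Within females that r was 0.13 and within males 0.0526.

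The genes whose level followed each fast member most closely, out of 11454 with a mean of at least 1 CPM, are given as a description. For Myh4 they were Pygm, the muscle glycogen phosphorylase (r = 0.936), Pvalb, the calcium buffer parvalbumin (0.936), and Mybpc2, fast myosin-binding protein C (0.935). For Myh1 they were Got2, mitochondrial aspartate aminotransferase (0.951), Gbas (0.925) and Gpn2 (0.900). For Myh2 they were Ldhb, the lactate dehydrogenase subunit of oxidative tissue (0.948), Myoz2, a Z-disc protein of slow fibres (0.940), and Nnt, a mitochondrial transhydrogenase (0.938).

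The comparison of vectors asked whether myosin composition differed after the Hand2 vector. None of the 8 members passed edgeR's quasi-likelihood test at a Benjamini-Hochberg adjusted p of 5% over 13965 genes, where 0% of all genes were called, and none had an unadjusted p under 0.05. DESeq2 and limma-voom also called 0 of 8, where DESeq2 called 1 of all 13965 genes and limma-voom 0. Myh4 measured 18997 to 29913 CPM with the empty vector (median 26674, n = 10) and 22644 to 31790 with the Hand2 vector (median 28346, n = 7), and the groups overlapped. Its log2 fold change was 0.09 ± 0.09 (SE), with a 95% interval of -0.09 to 0.28 (edgeR adjusted p = 0.935). Myh1 measured 6400 to 12023 CPM with the empty vector (median 7778) and 7312 to 8249 with the Hand2 vector (median 7654), a log2 fold change of -0.14 ± 0.13 with an interval of -0.41 to 0.13 (edgeR adjusted p = 0.931). Myh2 measured 1357 to 6398 CPM with the empty vector (median 2604) and 1867 to 2977 with the Hand2 vector (median 2726). Its log2 fold change was -0.30 ± 0.23 with an interval of -0.80 to 0.20 (edgeR adjusted p = 0.924). The coefficient of variation of Myh1 was 24.5% in the empty vector group and 4.50% in the Hand2 group, and that of Myh2 49.99% and 17.8%. The 3 animals with low Myh4 shares all belonged to the empty vector group, and the difference in spread was not tested.

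Myh7 measured 4.63 to 405 CPM with the empty vector (median 82.7) and 8.34 to 442 with the Hand2 vector (median 84.4). Its log2 fold change of 0.57 ± 0.68 had an interval of -0.88 to 2.03 (edgeR adjusted p = 0.943), and it became -0.24 without Hand2 replicate 6, -0.78 in limma-voom, -1.18 in the animals of 22 months and 1.82 in those of 23. For Myh3 the value was -0.21 ± 0.14, for Myh7b -0.06 ± 0.10, for Myh8 -0.03 ± 0.07 and for Myh6 -0.00 ± 0.13. As shares of the 8 genes, Myh4 averaged 68.5% ± 9.49 (SD, n = 10) with the empty vector and 72.0% ± 3.36 (SD, n = 7) with the Hand2 vector, a difference of 3.51 points (two-sided exact permutation within sex, 7056 permutations, p = 0.362). None of the 8 shares reached p = 0.05 between vectors in that test, with p from 0.211 (Myh3) to 0.919 (Myh6). Without empty vector replicate 8 the exact permutation p of the Myh3 share was 0.0483.

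Within females 0 of 8 members were called between vectors by edgeR (0% of 13965 genes), and 1, Myh3 at -0.38 ± 0.18, had an unadjusted p under 0.05, as did 824 of all genes. Within males 0 of 8 were called (0% of genes), and 0 had an unadjusted p under 0.05. Myh7 gave -0.22 ± 0.87 in females and 1.5025 ± 0.97 in males. The difference between the sexes in the vector effect was called for 0 of 8 members (0% of genes), also with 0 at an unadjusted p under 0.05, and its value for Myh7 was 1.72 ± 1.31. DESeq2 and limma-voom called 0 of 8 in each of these comparisons too. Of all 13965 genes DESeq2 called 7 within females, 1 within males and 0 for that difference. The limma-voom fits called 0 in each.

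**Figure D2:**
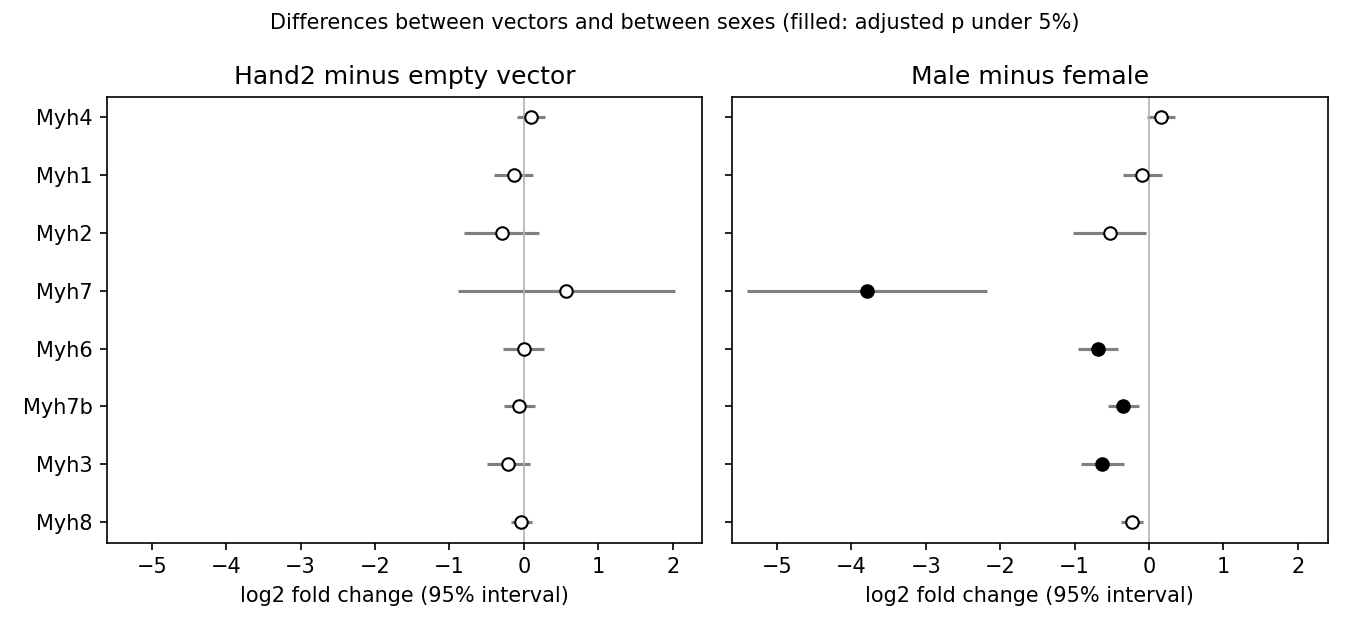
Log2 fold change with its 95% interval (x axis) for each of the 8 genes (y axis), Hand2 minus empty vector on the left and male minus female on the right. Intervals on the left all span 0, and on the right Myh7, Myh6, Myh7b and Myh3 lie below 0 with filled points.

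Between the sexes Myh7 had the largest fold change of the 8 members. It measured 405, 385, 145, 224 and 258 CPM in the empty vector females of replicates 1 to 5. It measured 106, 8.34, 417 and 442 CPM in the Hand2 females of replicates 1, 2, 3 and 5. In the empty vector males of replicates 6 to 10 it measured 9.22, 4.63, 20.01, 8.08 and 19.8 CPM, and in the Hand2 males of replicates 4, 6 and 7 it measured 8.57, 84.4 and 12.0 CPM. In the empty vector group females and males were far apart. In the Hand2 group they overlapped, since 1 female lay at the level of males and 1 male close to the lowest of the other females. The medians were 258 CPM in 9 females and 10.6 CPM in 8 males, a ratio of 24.3, and 8 of 9 females lay above every male.

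Myh7 was lower in males by edgeR with a log2 fold change of -3.79 ± 0.75 (95% interval -5.41 to -2.18, adjusted p = 0.0092). Without Hand2 replicate 2 it was -4.02, and without Hand2 replicate 6 it was -4.53. Leaving out each animal in turn gave -4.53 to -3.62 (edgeR adjusted p from 0.00145 to 0.023). In the empty vector animals alone the value was -4.52 (edgeR adjusted p = 0.00295). More males (6 of 8) than females (4 of 9) were of 23 months, and with an age term the value was -3.86 (adjusted p = 0.0195). As a share of the 8 genes Myh7 ranged from 0.0246% to 1.19% in females (median 0.714%) and from 0.0127% to 0.203% in males (median 0.0282%). The exact permutation of sex within vector, over 8820 permutations and without adjustment for the 16 share tests made, gave p = 0.00113.

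In all, 4 of 8 members were called lower in males and 0 higher by edgeR, where 5.63% of all genes were called between the sexes, 2.72% lower in males and 2.91% higher. The median log2 fold change of the 8 was -0.43 and that of all genes 0.00. Leaving out each animal in turn gave 3 to 5 members. Females and males did not fully separate for any member, and 0.351% of all genes had every female above every male.

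Myh6, the alpha-cardiac form, measured 22.6 to 47.8 CPM in females (median 41.6) and 20.4 to 29.5 in males (median 22.3), and 7 of 9 females lay above every male. Its log2 fold change was -0.68 ± 0.13 (edgeR adjusted p = 0.00493). Its lowest female was Hand2 replicate 2 and its highest male Hand2 replicate 6, which were also the lowest female and the highest male in Myh7. Across 17 animals the r of Myh6 with Myh7 was 0.944. That r pools the sexes, and both genes were lower in males. They share 22.6% of the 50-base stretches of Myh6, and the part of Myh7 reads in Myh6 was not tested. The summed level of 9 cardiac muscle markers was 2.03 to 10.3 CPM in females and 4.38 to 8.34 CPM in males, with Gja5, a gap junction gene also found in vessel walls, at 1.47 to 9.25 CPM. Myl7 was at 0 in all libraries, and of the 3 tested, Gja5, Tnni3 and Ryr2, edgeR called 0, with 0 at an unadjusted p under 0.05.

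Myh7b, a relative of Myh7 that hosts a microRNA gene, measured 19.3 to 29.1 CPM in females (median 23.9) and 15.9 to 24.4 in males (median 17.9). Its log2 fold change was -0.34 ± 0.10 (edgeR adjusted p = 0.0488). The call was lost on leaving out any 1 animal except empty vector replicate 10, Hand2 replicate 1 or Hand2 replicate 6, with adjusted p from 0.0134 to 0.0974, and with an age term (adjusted p = 0.0736). The gene Trpc4ap, on the opposite strand, overlaps its last bases, and whether strand was used in counting is not stated.

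Of the developmental forms, Myh3 measured 16.1 to 31.4 CPM in females (median 26.1) and 11.1 to 24.96 in males (median 15.03). The highest male was empty vector replicate 10, and 5 of 9 females lay above every male. Myh3 was lower in males with a log2 fold change of -0.63 ± 0.14 (edgeR adjusted p = 0.0125), and -0.79 in the empty vector animals alone (edgeR adjusted p = 0.0737). Myh8 measured 9.74 to 12.1 CPM in females (median 10.2) and 8.01 to 9.93 in males (median 9.11), and 7 of 9 females lay above every male. Its value of -0.23 ± 0.07 did not pass (edgeR adjusted p = 0.0571), while DESeq2 called it (adjusted p = 0.0205). The 2 genes had an r of 0.720 across 17 animals (permutation p = 0.00089, 0.00119 adjusted over 4 pairs) and a rho of 0.726 (permutation p = 0.00119, adjusted 0.00476). Without the 2 animals farthest from the median r was 0.606, and within females it was 0.266 and within males 0.522, neither of which passed.

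The fast members did not pass between the sexes. Myh4 measured 20329 to 29003 CPM in females (median 24356) and 18997 to 31790 in males (median 28452), a log2 fold change of 0.16 ± 0.09 with an interval of -0.02 to 0.35 (edgeR adjusted p = 0.293). Myh2 measured 2492 to 6398 CPM in females (median 2800) and 1357 to 4542 in males (median 1950), and all 9 females lay above the male median. Its value was -0.53 ± 0.23 with an interval of -1.02 to -0.03 (edgeR adjusted p = 0.199). Without empty vector replicate 10, the male with the highest Myh2, it was -0.72 and passed (edgeR adjusted p = 0.0389). In the other 16 of 17 runs that left out 1 animal Myh2 did not pass. Over all 17 it ran from -0.72 to -0.34, with edgeR adjusted p up to 0.322. Myh1 measured 6896 to 12023 CPM in females (median 7621) and 6400 to 11138 in males (median 7657), a value of -0.09 ± 0.12 with an interval of -0.35 to 0.17 (edgeR adjusted p = 0.721).

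As shares, 5 of 8 members reached an unadjusted p under 0.05 between the sexes in the exact permutation test, each lower in males. Besides Myh7 they were Myh6 (p = 0.000454), Myh3 (p = 0.00136), Myh8 (p = 0.00193) and Myh7b (p = 0.0034), all by exact permutation. Myh4 averaged 67.4% ± 6.84 (SD, n = 9) in females and 72.8% ± 7.86 (SD, n = 8) in males (exact permutation p = 0.147), and Myh2 8.80% ± 3.06 and 6.09% ± 2.95 (exact permutation p = 0.0837). Without empty vector replicate 10 the difference in Myh4 was 7.96 points (exact permutation p = 0.00862). That in Myh2 was -3.71 points (exact permutation p = 0.00113). In the other 16 of 17 runs that left out 1 animal neither passed. Over all 17 Myh4 ran from 3.87 to 7.96 points (exact permutation p up to 0.305). Myh2 ran from -3.71 to -1.75 points (exact permutation p up to 0.147). With all 17 animals on the logit scale, the difference in the Myh2 share passed (exact permutation p = 0.0282).

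**Figure D3:**
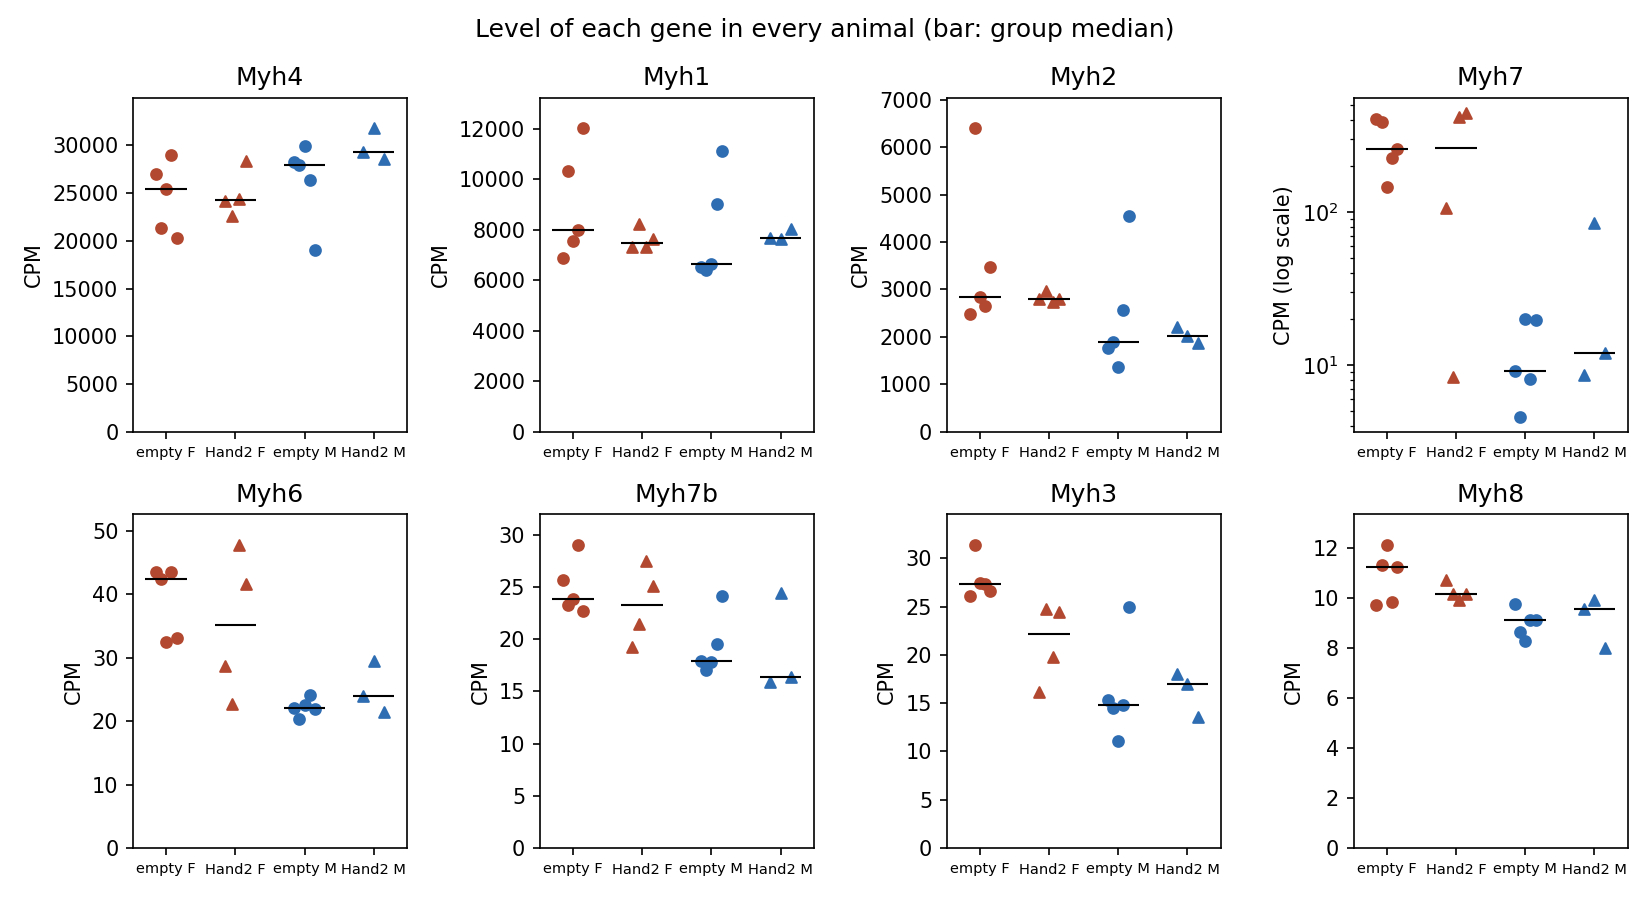
CPM (y axis, log scale for Myh7 only) of each gene in every animal, in 4 groups by vector and sex (x axis, F female, M male), with a bar at the group median. Myh7 reached 145 CPM or more in all 5 empty vector females and 20.01 CPM or less in all 5 empty vector males, while 1 Hand2 female (8.34 CPM) and 1 Hand2 male (84.4 CPM) lie away from their groups.

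Of 13 listed partners of the slow sarcomere and calcium pump, 7 were lower in males and 0 higher by edgeR (2.72% and 2.91% of all genes were), with a median log2 fold change of -1.09 against 0.00 for all genes. The 7 were Tnni1 (-2.77 ± 0.40), Tnnc1 (-2.50 ± 0.39) and Tnnt1 (-2.21 ± 0.32), the slow troponins, Myl3 (-2.65 ± 0.42) and Myl2 (-2.39 ± 0.32), the slow light chains, Atp2a2, the slow calcium pump (-1.64 ± 0.26), and Tpm3, slow tropomyosin (-0.85 ± 0.15). Of the others 5 had values below 0, and Mb, the oxygen store myoglobin, gave 0.06 ± 0.13. Mb was named, and Myl3 and Tpm3 to complete the 7, after their values were seen. Adjusted p ran from 0.000428 (Myl2) to 0.00307 (Tpm3) by edgeR. Leaving out each animal gave 7 to 11 of the 13, with 11 without empty vector replicate 10. Tnnc1 (r = 0.983), Tnni1 (0.980) and Tnnt1 (0.972) were also the genes whose level followed Myh7 most closely over 17 animals. Within females their r was 0.98, 0.97 and 0.97, and within males 0.95, 0.96 and 0.91. Nearest to Myh6 were Tnnt1 (0.965), Tnnc1 (0.962) and Atp2a2 (0.956). Their r was 0.96, 0.92 and 0.93 within females and 0.71, 0.83 and 0.60 within males.

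Hand2 replicate 2, the female with the lowest Myh7, held 9.71 CPM of Tnni1, where the highest male held 16.0 CPM and the female median was 54.1 CPM. Its Tnnt1 (25.7 CPM), Tnnc1 (11.5 CPM), Myl3 (20.2 CPM), Atp2a2 (84.5 CPM) and Tpm3 (78.3 CPM) also lay within the male ranges. Myl2 was the exception among the 7, as the animal held 122 CPM of it, within the female range of 97.7 to 330 CPM and above the male range of 14.6 to 71.0 CPM. Hand2 replicate 6, the male with the highest Myh7, also had the highest Tnni1 of the males, at 16.0 CPM below the 22.9 CPM of the next lowest female, and its Myl2 of 38.0 CPM lay within the male range. In Myl2 every female lay above every male, and in Myh7 and Tnni1 the sexes overlapped.

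**Figure D4:**
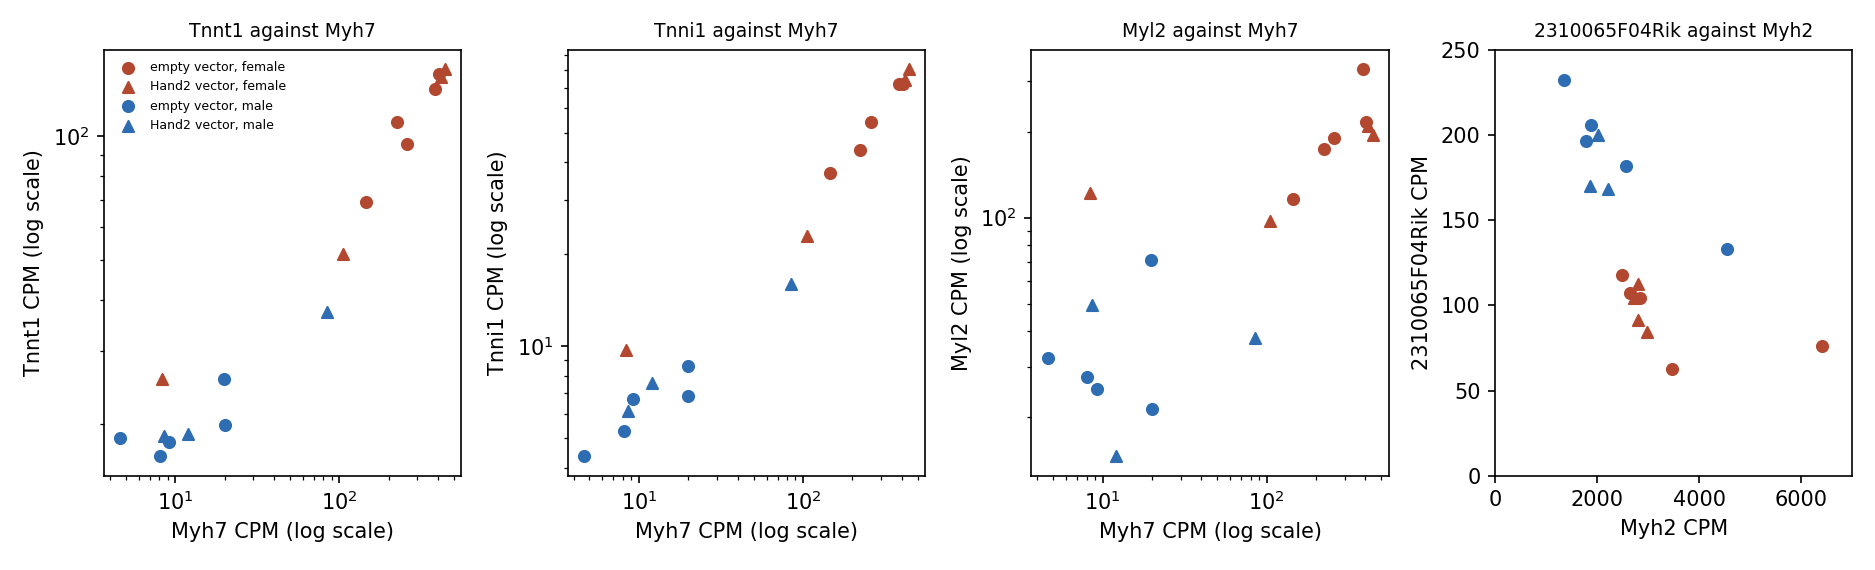
CPM of Tnnt1, Tnni1 and Myl2 (y axes, log scale) against Myh7 (x axis, log scale), and of 2310065F04Rik against Myh2 (linear axes), 1 point per animal, coloured by sex and shaped by vector. Hand2 female replicate 2 sits among the males for Tnni1 at 9.71 CPM but at 122 CPM of Myl2, and 2310065F04Rik is at 133 CPM or more in the males alone.

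Of 13 fast partners, 2 were higher in males by edgeR (2.91% of all genes were), Tpm1 (0.23 ± 0.06) and Myoz1, a Z-disc protein of fast fibres (0.15 ± 0.04), with a list median of 0.12. Leaving out each animal gave 0 to 3, and an age term or the empty vector animals alone gave 0. Of 16 tested developmental and regenerating-fibre genes, 2 were lower in males (2.72% of all genes were), Myog, the differentiation factor myogenin (-1.45 ± 0.37), and Cdh15, the satellite cell adhesion protein M-cadherin (-0.37 ± 0.08), with 1 to 2 on leaving out each animal. The genes nearest to Myh3 were 3 ribosomal protein genes, Rplp0 (r = 0.902), Rpsa (0.899) and Rps26 (0.897), each lower in males. Their r was 0.75, 0.71 and 0.77 within females and 0.85, 0.83 and 0.80 within males. Between the vectors edgeR called 0 of 13 slow partners, 0 of 13 fast partners and 0 of 16 developmental genes. An unadjusted p under 0.05 was held by 1 fast partner and 1 developmental gene, and by 705 of all 13965 genes.

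The noncoding gene 2310065F04Rik, also called linc-MYH, is transcribed from the fast myosin cluster on the minus strand. It measured 62.7 to 118 CPM in females (median 104) and 133 to 233 CPM in males (median 189), so the sexes did not overlap, as in 0.494% of all genes with every male above every female. It was higher in males with a log2 fold change of 0.96 ± 0.13 (edgeR adjusted p = 0.00023). Empty vector replicate 5 had its lowest value among females and empty vector replicate 10, at 133 CPM, its lowest among males, and both had low Myh4 shares. Between vectors its value was -0.00 ± 0.13 (edgeR adjusted p = 0.998). Of 7 listed genes inside or beside the members, 2 were tested. The other, Gm12295, had a negative value between the sexes, -0.94 ± 0.45, and did not pass (edgeR adjusted p = 0.235).

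Of 6 markers of fat cells, 4 were lower in males by edgeR (2.72% of all genes were), Cidec (-1.60 ± 0.31), Adipoq (-1.22 ± 0.29), Plin1 (-1.29 ± 0.31) and Lep (-1.73 ± 0.47), with 3 to 4 on leaving out each animal, and none was at 0 in all libraries. Cfd gave -0.90 ± 0.30 (edgeR adjusted p = 0.0946) and Fabp4, a fatty acid binding protein, 0.13 ± 0.12, and neither passed. The summed level of the 6 was 174.7 to 327.8 CPM in females (median 225.6) and 181.1 to 322.6 CPM in males (median 221.1). Adipoq and Plin1 reached at most 10.2 and 6.93 CPM in any animal, so the sum is mostly that of other markers. The part of such cells in the sex differences above was not tested. By edgeR, markers of smooth muscle (5 tested), tendon (6), blood and immune cells (6) and nerve (6) had 0 called between the sexes, with 3, 0, 0 and 3 at an unadjusted p under 0.05. Over all genes, 3017 of 13965 had an unadjusted p under 0.05 between the sexes by edgeR.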

How the data were processed

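Libraries of EDL muscle RNA were made with Illumina TruSeq v2 reagents (per the labels' protocols), and the submitters' processing notes name the mm10 build. The sources used here do not name the aligner, the counter or the use of strand. The authors deposited an estimated count per gene and animal, not scaled for depth, of which 25.5% to 29.3% of values above 0 were whole within 0.001. They also deposited normalized log2 values, used here for 1 alternative.

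Estimated counts were rounded, filtered by edgeR's filterByExpr (13965 of 36172 rows left) and scaled by TMM. The tests were quasi-likelihood F tests of edgeR 4.0.16 in R 4.3.3 with robust estimates, with vector and sex as terms, or with 4 vector-by-sex groups for effects within a sex and their difference. P-values were adjusted by Benjamini-Hochberg over all genes. The SE is the fold change divided by the square root of F. Levels are TMM-scaled CPM, and correlations took log2 CPM (prior count 2) and 100000 permutations. Shares are percent of the summed unrounded counts of the 8 members. Differences in share were tested by two-sided exact permutation within the strata of the other factor. Fits and permutations were tested on simulated data.

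Animals were numbered by accession within each vector, so the numbers pair none. Each library is 1 animal, so p-values measure the spread between these animals, and limits from counts cover counting error only. The members and gene lists were chosen with earlier results of these data known. Named are the 8 members, for each list up to 4 genes by smallest p between sexes and up to 2 between vectors plus all that passed where at most 5 did, and 3 most alike genes per member. The text gives part of these. Alternatives were DESeq2 1.42.0, limma 3.58.1, other scalings, filters and ages, and leaving out each animal.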

Additional observations from a re-analysis of the deposited data

Results flagged for a closer look

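Among 24 combinations of member and vector-by-sex group with 4 or 5 animals, 2 held an animal whose gap to the next was large against the range of its group. Chance gives about 1 in 20. In the empty vector females, replicate 2 had 6398 CPM of Myh2, where the other 4 had 2492 to 3463 CPM. The same animal had 31.4 CPM of Myh3, where the others had 26.1 to 27.4 CPM. The Hand2 males, a group of 3, were not examined this way.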

How the results depend on the processing

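The direction and the call of the fold changes of Myh7, Myh6, Myh4 and Myh1 between sexes were the same under every alternative run, and members called numbered 3 to 5 but for 2 (Myh7 and Myh6) in the empty vector animals alone. Myh7b was lost in 5 of 10 settings other than leaving out an animal, and Myh8 was gained in 4. DESeq2 called 1271 genes between sexes against 786, limma-voom 1044, and upper-quartile scaling put 65.6% of calls higher in males against 51.7%. Among shares of the 4 adult members, 1 (Myh7) differed between sexes. Without empty vector replicate 8, 1 share differed between vectors, and without each other animal 0. Of 4 correlations 3 passed, all but that of Myh7 with Myh2, and 1 in females alone.

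No member passed between vectors under any edgeR, DESeq2 or limma setting, and several values changed sign; the cause was not tested. Between vectors, Myh7 was -0.78 in limma-voom, -1.18 at 22 months, 1.82 at 23 months, 0.06 without a sex term and -0.23 on the authors' normalized log2 values, and 0.55 to 0.61 in the other settings that kept every animal. Myh6 was 0.00865 with upper-quartile scaling, 0.000389 with an age term, 0.0111 without a sex term and 0.19 at 23 months, where Myh3 was 0.0318 and Myh7b 0.11. Leaving out each animal, Myh7 ran from -0.24 to 0.85 and Myh6 from -0.0811 to 0.0907. In females Myh4 was -0.0338 in limma-voom, and leaving out each animal gave Myh4 -0.0545 to 0.0802, Myh7 -0.68 to 0.18 and Myh6 -0.33 to 0.0149. In males limma-voom gave Myh1 0.0426 and Myh7b 0.0423, the age term Myh3 -0.00936 and the authors' values Myh1 0.0079. There, leaving out each animal gave Myh1 -0.0993 to 0.12, Myh2 -0.41 to 0.0998, Myh7 -0.27 to 1.97, Myh3 -0.1 to 0.22, Myh8 -0.0313 to 0.12 and Myh7b -0.26 to 0.0833. For the difference between sexes in the vector effect it gave Myh2 -0.24 to 0.44, Myh7 -0.0463 to 2.19 and Myh7b -0.16 to 0.18. For vector differences in share (points) it gave Myh7 -0.109 to 0.0995, Myh8 -0.00122 to 0.000509, Myh6 -0.00816 to 0.00544 and Myh7b -0.00531 to 0.00104.

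The shares per coding length were not run and were replaced by shares per transcript length, which, like limma on the authors' values, was chosen after seeing the data. No paired analysis was made. The replicate numbers were given here by accession order, and numbers in the sample titles were not used to pair animals. Depth did not limit detection of any member.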

Other observations

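The 6 other myosin heavy chain genes listed (Myh9, Myh10, Myh11, Myh13, Myh14 and Myh15) passed no test between vectors or sexes by edgeR, with 0 and 1 at an unadjusted p under 0.05. Over all 13965 genes these counts were 705 and 3017. Myh9, a nonmuscle form, measured 98.2 to 142 CPM. Myh13, the next gene of the chromosome 11 cluster and the form of extraocular muscle, measured 22.4 to 34.4 CPM, and Myh15 0.0430 to 0.672 CPM.

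Of 24 tested regulators of fibre type, Tead1, which binds MCAT motifs of muscle genes, was higher in males by edgeR (0.25 ± 0.07, adjusted p = 0.0457), as were 2.91% of all genes, and the others did not pass. Leaving out each animal gave 0 to 1 higher and 0 to 1 lower. Foxo1 gave -1.34 ± 0.43 (edgeR adjusted p = 0.0872) and Tbx15, a factor of glycolytic fibres, 0.18 ± 0.08 (edgeR adjusted p = 0.164). Between vectors 0 of 24 passed, with 1 at an unadjusted p under 0.05, Rcan1 at -0.59 ± 0.21 (edgeR adjusted p = 0.921). Of all 13965 genes, 705 had an unadjusted p under 0.05 in that comparison. The microRNA genes inside Myh6, Myh7 and Myh7b (Mir208a, Mir208b and Mir499) were at 0 in all libraries. No library of small RNA was among the samples, so these counts do not show that the microRNAs were absent.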
